A study of Mus musculus with 6 samples.

Results

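The genes described here make the V(D)J recombinase and the machinery that rejoins the DNA ends it leaves. They were taken as every probe set whose only gene symbol was Rag1, Rag2, Dntt, Xrcc4, Xrcc5, Xrcc6, Lig4, Dclre1c, Prkdc or Hmgb1. This gave 12 probe sets of 8 genes, among 45101 probe sets and 18193 singly named genes on the array. Dntt had 3 probe sets, Xrcc4 and Xrcc6 had 2 each, and the other 5 genes had 1 each. For Dclre1c no probe set was listed, and the 5 probe sets listed for Hmgb1 also carried other genes, so signals of neither gene were analysed. Their promoter windows were included.

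RNA came from bone marrow B cells of C57BL/6 mice of mixed sex, aged 8 to 12 weeks and not treated. B cells had been enriched by removing cells with CD3, Ter119, CD11b, DX5 or Gr1 and were then sorted into cells with Igκ or Igλ light chains. The 3 groups, with 2 arrays each, were TAK1-deficient Igκ+ cells (genotype mb-1/TAK1f/f), wild-type Igλ+ cells (mb-1/TAK1+/+) and wild-type Igκ+ cells (mb-1/TAK1+/+). The mb-1 element is thus shared by all groups. The labels do not spell it out; mb-1 is an older name of Cd79a, a gene active throughout the B lineage. Map3k7 encodes TAK1, a kinase through which many receptors switch on NF-κB and MAP kinase signalling. Whether the arrays of a group came from separate animals is not stated, so p-values cover the spread between these arrays alone, and that spread may be technical.

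RAG1 and RAG2 together form the recombinase that cuts DNA beside the V, D and J segments of antigen receptor genes. The cut ends are held by the Ku heterodimer and DNA-PKcs, opened by Artemis (Dclre1c), and sealed by the XRCC4 and DNA ligase IV complex, while terminal transferase (Dntt) adds bases without a template. In the bone marrow Rag1 and Rag2 are used by pro-B and pre-B cells, and again by immature B cells that replace a light chain, a process called receptor editing, in which cells that have used up κ rearrangements often turn to λ. Dntt belongs to pro-B cells, whereas end-joining genes serve DNA repair in nearly all cells.

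The 3 lymphoid genes differed from most end-joining genes in the sequence around their start. In windows of 250 bases before to 50 bases after the start (RefSeq, GRCm38.p6), Rag1 and Rag2 held 3 CG dinucleotides each and Dntt held 2, against a median of 7 over 32851 mouse windows. Xrcc4 held 31, Xrcc6 30 and the Lig4 windows 29 and 30, while Xrcc5 held 9. Rag1 and Rag2 lie side by side on chromosome 2, on opposite strands, with 0 annotated genes between them. The windows of the 3 lymphoid genes and, for contrast, of Xrcc6 are printed with CG dinucleotides in capitals. They are chr2:101649483-101649782 (minus strand) for Rag1, chr2:101624462-101624761 (plus) for Rag2, chr19:41029025-41029324 (plus) for Dntt and chr15:82016119-82016418 (plus) for Xrcc6.
Rag1: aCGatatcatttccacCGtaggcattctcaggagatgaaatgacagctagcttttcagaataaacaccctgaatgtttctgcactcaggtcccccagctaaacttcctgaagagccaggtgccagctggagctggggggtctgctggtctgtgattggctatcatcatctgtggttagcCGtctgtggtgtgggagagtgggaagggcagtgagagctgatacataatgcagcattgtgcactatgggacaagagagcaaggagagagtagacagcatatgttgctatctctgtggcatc
Rag2: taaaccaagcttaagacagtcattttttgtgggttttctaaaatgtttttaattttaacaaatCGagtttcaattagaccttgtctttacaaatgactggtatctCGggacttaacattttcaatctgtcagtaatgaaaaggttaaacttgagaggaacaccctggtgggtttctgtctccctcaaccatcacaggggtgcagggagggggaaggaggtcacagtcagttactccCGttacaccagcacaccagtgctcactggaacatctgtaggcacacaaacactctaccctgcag
Dntt: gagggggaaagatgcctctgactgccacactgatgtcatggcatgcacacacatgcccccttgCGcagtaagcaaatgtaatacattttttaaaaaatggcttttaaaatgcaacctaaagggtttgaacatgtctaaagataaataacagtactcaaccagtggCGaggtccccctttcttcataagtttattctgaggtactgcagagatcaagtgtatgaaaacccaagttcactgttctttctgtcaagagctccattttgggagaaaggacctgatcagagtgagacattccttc
Xrcc6: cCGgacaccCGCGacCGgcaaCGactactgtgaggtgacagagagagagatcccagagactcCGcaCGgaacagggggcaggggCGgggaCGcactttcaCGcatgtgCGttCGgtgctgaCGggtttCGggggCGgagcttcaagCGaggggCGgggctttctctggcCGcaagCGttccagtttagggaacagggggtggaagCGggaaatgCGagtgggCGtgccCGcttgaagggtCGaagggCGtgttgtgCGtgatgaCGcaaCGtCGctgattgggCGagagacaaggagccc
The E-box CANNTG, a motif bound by E2A proteins, occurred 4 times in the Rag1 window, 2 times in that of Rag2 and 3 times in that of Dntt, and 72.3% of all windows hold it. CCAAT, searched on both strands, occurred once in the Rag1 window and was not found in those of Rag2 and Dntt (37.4% of all windows hold it). GTAAACA, a FOXO motif, and TATAAA, searched on both strands, were in 0 of the 11 windows of the 9 listed genes with one, against 3.65% and 13.6% of all windows. A match is a string of letters, not a measured binding site.

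**Figure D1:**
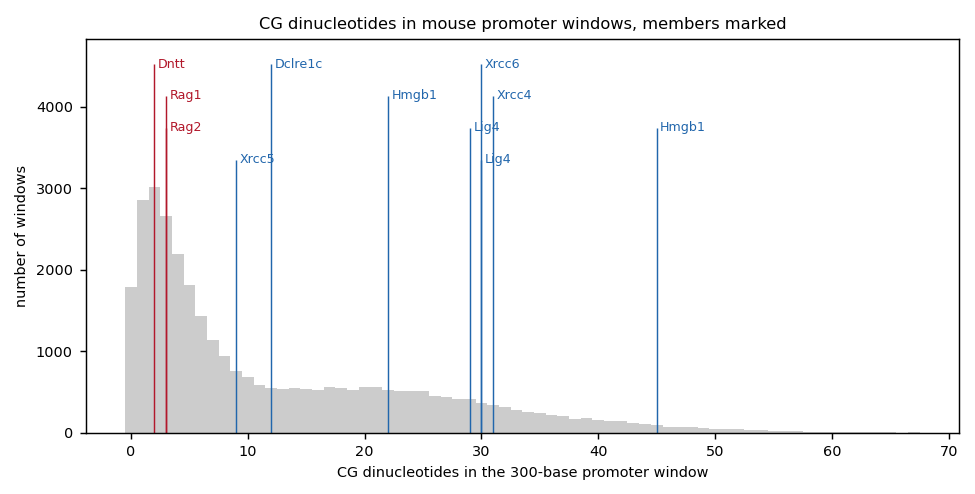
CG dinucleotides per promoter window (x axis) against the number of windows (y axis, grey bars), over 32851 mouse windows. Vertical lines mark the listed genes, with Rag1, Rag2 and Dntt in red at 2 or 3 and the others in blue at 9 to 45.

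The TAK1-deficient arrays stood apart from the other 4, and this touches every value that rests on them. Whether they were prepared, hybridised and scanned like the wild-type arrays was not tested, so differences of genotype and of handling cannot be told apart. The median signal over all probe sets was 324 and 323 there, against 44.9 to 59.1 on wild-type arrays. The spiked hybridization controls had geometric means of 47043 and 41197, against 3985 to 4608. Actb probe sets at the 3′ end were brighter than at the 5′ end by ratios of 6.28 and 4.18, against 1.25 to 1.58. Pearson's r of log2 signals across probe sets was 0.919 between the TAK1-deficient arrays, 0.43 to 0.51 between TAK1-deficient and wild-type arrays and 0.96 to 0.98 among wild-type arrays; probe sets are not independent replicates. The leading probe set of Map3k7, the targeted gene, had 346 and 599 on TAK1-deficient arrays, against 2149 and 1957 on the wild-type Igλ+ arrays and 2196 and 1805 on wild-type Igκ+ arrays. Of its 6 probe sets, 4 were lower past the threshold in TAK1-deficient than in wild-type Igκ+ cells as deposited, and 2 did not pass, with log2 differences of -0.99 and 0.30. By the same rule 21.8% of all probe sets were lower. Other scalings were not read for this gene, so its lower signal is not a check of the deletion. Where the probes lie relative to the deleted part is not known. The 8 measured B cell markers were above the level of unspiked controls on all 6 arrays. Signals carry no unit beyond the scaling of their array, and levels of different probe sets are not compared.

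Signals of both recombinase genes were higher on the 2 Igλ+ arrays than on either wild-type Igκ+ array, without passing the test across all probe sets. Rag1, the catalytic subunit of the recombinase, had 315 and 478 on the Igλ+ arrays, against 178.5 and 69.4 on the Igκ+ arrays. The groups did not overlap, and the log2 difference was 1.65 ± 0.44 (SE; 95% interval 0.60 to 2.70). Among the probe sets of its array, Rag1 stood at percentiles 69.4 and 73.2 in Igλ+ cells, against 62.7 and 54.3 in Igκ+ cells. Rag2, the partner subunit, had 41.6 and 39.2 on the Igλ+ arrays, against 23.8 and 6.56 on the Igκ+ arrays. Both Igλ+ arrays were above both Igκ+ arrays here too, and the second Igκ+ array was at the level of the unspiked controls (95th percentile 10.3). The log2 difference of Rag2 was 0.91 ± 0.34 (SE; interval 0.10 to 1.72), and because the gene is dim it was 1.59 with a pseudocount of 1 and 0.41 with one of 64.

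Rag1 had an unadjusted p of 0.00742 and Rag2 one of 0.0321 in limma, and 0 of 12 members passed after Benjamini-Hochberg adjustment, as did 0% of all probe sets (smallest adjusted p 0.99999). Of all 45037 non-control probe sets, 1.98% had an unadjusted p under 0.05, and 1.63% did so with a higher signal in Igλ+ cells. Rag1 and Rag2 were 2 of 12 members with such a p. The groups did not overlap for 3 members that were higher in Igλ+ cells (Rag1, Rag2 and 1 probe set of Xrcc6) and 2 that were lower (both of Xrcc4), against 19.3% and 7.88% of all probe sets. With 2 arrays a group, an exact two-sided permutation test cannot go below p = 0.333. Rag1 stayed higher in Igλ+ cells when each wild-type array was left out, by 1.06 to 2.24 on the log2 scale, and Rag2 by 0.50 to 1.32. The lowest values, 1.06 and 0.50, came without Igκ+ replicate 2, which had the lower signal of its group for both genes.

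The replicates of the Igκ+ cells differed in the lymphoid genes more than in the end-joining genes. The ratio of replicate 1 to replicate 2 was 2.57 for Rag1, 3.64 for Rag2 and 2 to 3.17 for Dntt, and it was 0.664 to 1.34 for the 7 probe sets of end-joining genes. Of the other early B lineage markers, Il7r, Igll1, Vpreb1, Kit and Cd34 were lower on replicate 2 than on replicate 1 as well, and Sox4, Lef1, Flt3 and Arpp21 were not. Il7r, which encodes a chain of the interleukin-7 receptor, had 780.1 and 614 on the Igλ+ arrays, against 551 and 138.5 on the Igκ+ arrays. Igll1, a component of the surrogate light chain, had 3386 and 3185 on the Igλ+ arrays, against 2883 and 1231 on the Igκ+ arrays. Lef1 went the other way, with 462 and 1458 on the Igλ+ arrays, against 1639 and 1706 on the Igκ+ arrays. Of 9 measured markers of pro-B and pre-B cells 7 had a difference above 0 (Igλ+ minus Igκ+), as were 62.9% of all genes. Their median difference was 0.52 on the log2 scale, against 0.08 for all genes, and 0 passed. Their summed signal was 6174 and 7889 on the Igλ+ arrays, against 6930.5 and 5011 on the Igκ+ arrays, and on both arrays of a wild-type group 0 of the 9 lay as low as unspiked controls. Kit and Cd34 did so on Igλ+ replicate 2, and Kit on Igκ+ replicate 2. The part of such cells in the Rag1 and Rag2 differences was not tested. In RNA from bulk samples, fewer cells of a type and less RNA per cell cannot be told apart.

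**Figure D2:**
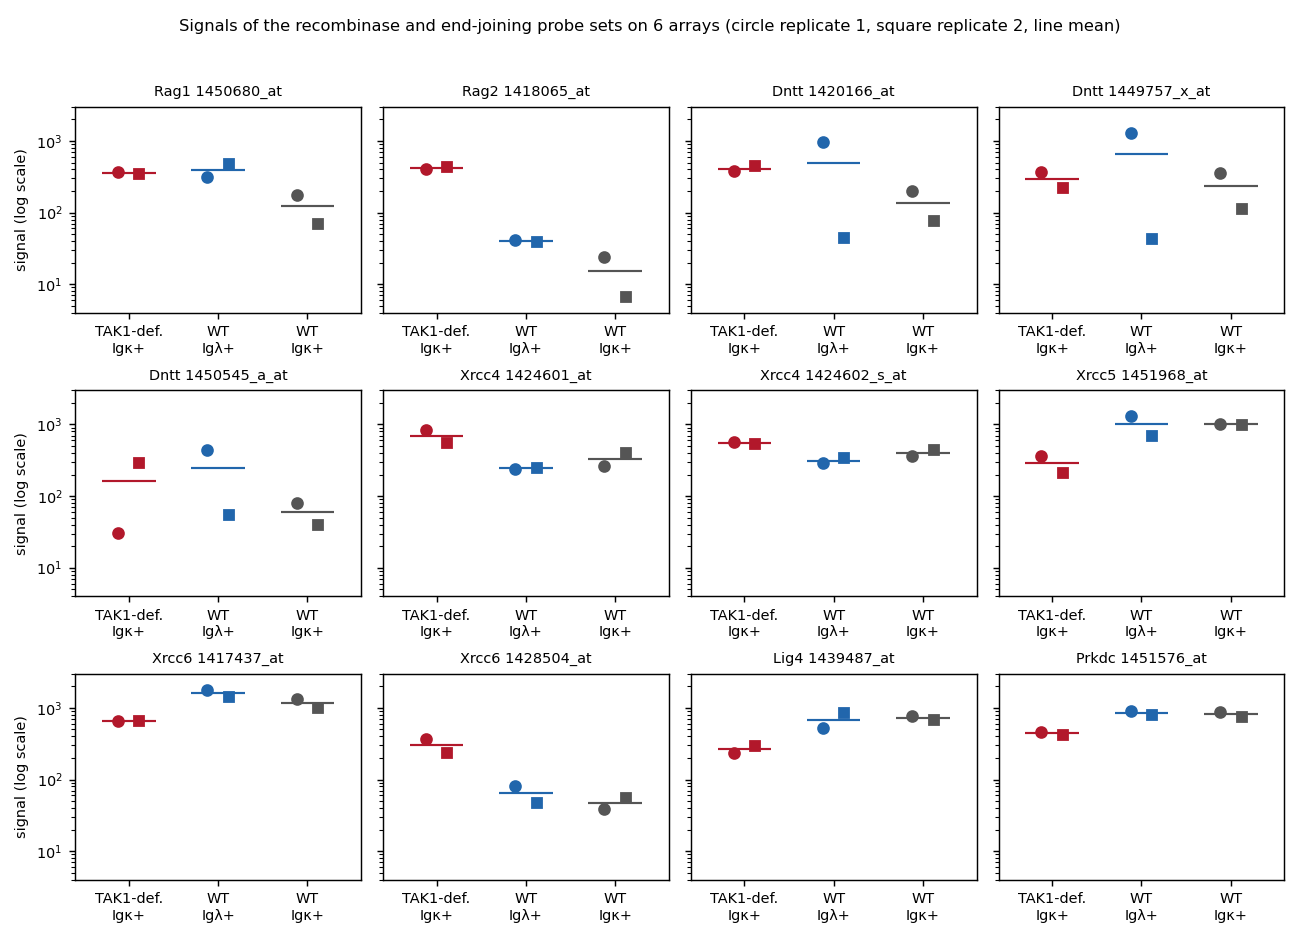
Signal of each of the 12 probe sets (y axis, log scale) in TAK1-deficient Igκ+, wild-type Igλ+ and wild-type Igκ+ cells (x axis); circles are replicate 1, squares replicate 2 and lines the mean of 2. Rag1 and Rag2 are higher on both Igλ+ than on both wild-type Igκ+ arrays, and the Dntt squares and circles of Igλ+ cells lie far apart.

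Dntt signals differed more between the Igλ+ arrays than between the light chain groups. The probe set 1449757_x_at had 1287 and 43.3 on Igλ+ replicates 1 and 2, against 353 and 111 on the Igκ+ arrays; its suffix marks probes that may also match other transcripts. The probe set 1420166_at had 956 and 43.9 on the Igλ+ arrays, against 200 and 75.2 on the Igκ+ arrays. The probe set 1450545_a_at had 439.9 and 53.9 on the Igλ+ arrays, against 80.03 and 40.01 on the Igκ+ arrays. Replicate 1 of the Igλ+ cells was thus highest of the wild-type arrays in all 3, and its ratio to replicate 2 was 29.7, 21.8 and 8.17, which placed these differences at percentiles 99.85, 99.8 and 99.45 of all probe sets. The log2 differences between light chain groups were 0.36 ± 1.30, 0.78 ± 1.15 and 1.28 ± 1.08 (SE), and without Igλ+ replicate 1 they were -1.87, -1.23 and -0.070. The 3 probe sets read the same gene in the same RNA and are not separate results.

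Markers of other cell types moved with Dntt on these arrays. The 8 granulocyte markers had a summed signal of 36119.9 and 320 on the Igλ+ arrays, against 5198 and 313 on the Igκ+ arrays. The 4 measured erythroid markers summed to 1282 and 38.4 on the Igλ+ arrays, against 182 and 91.5 on the Igκ+ arrays. On Igλ+ replicate 2, 3 of the 8 granulocyte and 3 of the 4 erythroid markers lay no higher than unspiked controls, and on replicate 1 none of either list did. Mpo and Elane, genes of granule proteins in early myeloid cells, had 7357 and 2560 on Igλ+ replicate 1 and 55.0 and 16.1 on replicate 2. Cd34, a marker of progenitors, had 346 and 15.1 on these arrays. For Rag1 and Rag2 the ratio of replicate 1 to replicate 2 was 0.66 and 1.06 in Igλ+ cells, and in Igκ+ cells, where both marker sums were higher on replicate 1, it was 2.57 and 3.64. The part of these other cells in the Dntt signal was not tested.

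**Figure D3:**
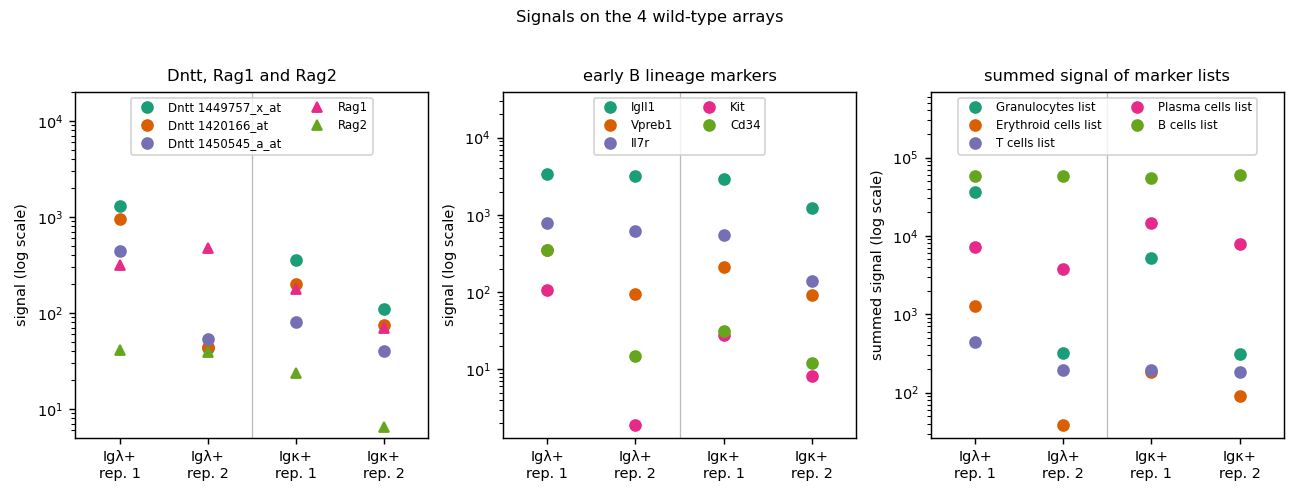
Signals on the 4 wild-type arrays (x axis; y axes are log scales): Dntt, Rag1 and Rag2 on the left, 5 of the 9 measured early B lineage markers, picked after their values were seen, in the middle, and the summed signal of marker lists on the right. The markers shown were all lower on Igκ+ replicate 2 than on replicate 1. Sox4, Lef1, Flt3 and Arpp21, which were not, are left out. Dntt and the granulocyte and erythroid sums are highest on Igλ+ replicate 1, and the B cell sum stays between 54254 and 59853.

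The end-joining genes had log2 differences from -0.39 to 0.46 between the light chain groups, and 0 passed. Prkdc, which encodes DNA-PKcs, had 905 and 794 on the Igλ+ arrays, against 889.7 and 751 on the Igκ+ arrays, a log2 difference of 0.052 ± 0.25 (SE; interval -0.54 to 0.64). Lig4, the ligase gene, had 517 and 842 on the Igλ+ arrays, against 773 and 677 on the Igκ+ arrays (-0.13 ± 0.32; interval -0.89 to 0.64). The wild-type groups overlapped for both genes. Xrcc5, which encodes Ku80, had 1325 and 688 on the Igλ+ arrays, against 1014 and 984 on the Igκ+ arrays (-0.063 ± 0.40; interval -1.002 to 0.88). Here the Igκ+ arrays lay between the Igλ+ arrays, whose ratio was 1.93. The leading probe set of Xrcc6, the Ku70 gene, had 1794 and 1404 on the Igλ+ arrays, against 1328 and 993 on the Igκ+ arrays (0.46 ± 0.25; interval -0.13 to 1.05), without overlap. Its other probe set, 1428504_at, had 82.2 and 46.8 on the Igλ+ arrays, against 39.0 and 55.9 on the Igκ+ arrays, with overlap. For Xrcc4, the scaffold of the ligase, the Igλ+ arrays had 239.6 and 246 at 1424601_at and 287 and 335 at 1424602_s_at, against 264 and 397, and 359 and 435, on the Igκ+ arrays. Both Xrcc4 probe sets were lower on both Igλ+ arrays, with log2 differences of -0.39 ± 0.34 and -0.34 ± 0.28 (SE). As folds the intervals span 0.499 to 1.84 for Xrcc5, 0.539 to 1.55 for Lig4 and 0.688 to 1.56 for Prkdc, and differences within them could not be measured with these arrays.

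In TAK1-deficient against wild-type Igκ+ cells, 4 member probe sets were lower and 4 higher past the threshold on the deposited scale (limma, Benjamini-Hochberg adjusted p). This comparison uses the same Igκ+ arrays as the one between light chains. Of all probe sets, 21.8% were lower and 56.8% higher by the same rule, so 8 called members of 12 are no result about these genes. The groups did not overlap for 6 members that were higher and 4 that were lower, against 63.9% and 26.5% of all probe sets. The median log2 difference was 0.60 over the 12 members and 1.53 over all probe sets.

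As deposited, Rag2 had the largest difference of the 12 probe sets. With quantiles, medians or spiked controls matched, Xrcc5, Lig4 and Prkdc, among others, had larger ones, downward. Rag2 had 399.8 and 428 on TAK1-deficient arrays, against 23.8 and 6.56 on wild-type Igκ+ arrays, a log2 difference of 3.84 ± 0.34 (SE, adjusted p = 4.73e-05). Relative to the other probe sets of its array it stood at percentiles 57.6 and 60.3, against 39.6 and 24.04 in wild-type Igκ+ cells. Its difference stayed above 0 under every scaling tried, at 1.40 with quantiles matched between arrays (adjusted p = 0.00796), 1.46 with medians matched (0.00349), 1.13 with the level adjustment (0.0330) and 1.13 with spiked controls matched (0.0563, no longer past the threshold). The level adjustment removes each TAK1-deficient array's trend against the wild-type level of a probe set. That level is the mean over all wild-type arrays, Igλ+ included. The adjusted difference from Igκ+ cells can therefore hold a part of the difference between the light chain groups. This touches Rag1 and Rag2, which were higher on the Igλ+ arrays, and the size of that part was not tested. Leaving out any of the 6 arrays kept the call, with differences from 3.43 to 4.25. Wild-type Igκ+ replicate 2 was at the level of unspiked controls, and the difference was 4.92 with a pseudocount of 1 and 2.60 with one of 64. Markers of T cells were brighter on these arrays as well, with a summed signal over 8 genes of 3999.6 and 4294 on TAK1-deficient arrays, against 195.1 and 186 on wild-type Igκ+ arrays. Bcl11b alone gave 2431 and 2313 of the TAK1-deficient sums. Of these 8 markers 3 and 2 lay no higher than unspiked controls on TAK1-deficient replicates 1 and 2, and 6 were higher and 0 lower past the threshold as deposited, against 1 higher and 2 lower with the level adjustment. Of the 9 early B lineage markers 2 were higher and 1 lower as deposited, and 4 higher and 1 lower with the level adjustment. Of all genes, 48.2% were higher and 31.9% lower as deposited, and 22% and 19.3% with the level adjustment. The part of such cells in the Rag2 signal was not tested.

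Rag1 had no direction that held across scalings. It had 365 and 340.2 on TAK1-deficient arrays, against 178.5 and 69.4 on wild-type Igκ+ arrays, and a log2 difference of 1.52 ± 0.44 (SE, adjusted p = 0.0158). Its percentiles on the arrays were 54.3 and 52.0, against 62.7 and 54.3 in wild-type Igκ+ cells, so the TAK1-deficient ranks lay near or under the lower wild-type rank. The difference turned to -0.36 with quantiles matched, -0.87 with medians matched and -1.62 with spiked controls matched (adjusted p = 0.0120), and was 0.93 with the level adjustment (adjusted p = 0.136). The call was also lost without TAK1-deficient replicate 1 (adjusted p = 0.0676), TAK1-deficient replicate 2 (0.0542) or wild-type Igκ+ replicate 2 (0.0928). The Dntt probe sets 1420166_at, 1449757_x_at and 1450545_a_at had 378 and 446, 373 and 219.8, and 30.7 and 294 on the TAK1-deficient arrays, and differences of 1.60 ± 1.15, 0.48 ± 1.30 and 0.71 ± 1.08 (SE) from wild-type Igκ+ cells. The value of 30.7 is at the level of unspiked controls, and all 3 differences turned negative with quantiles, medians or spiked controls matched. None of the 3 passed as deposited; without either Igλ+ array, whose Dntt spread enters the shared error, 1420166_at did (adjusted p = 0.0150 and 0.0143).

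**Figure D4:**
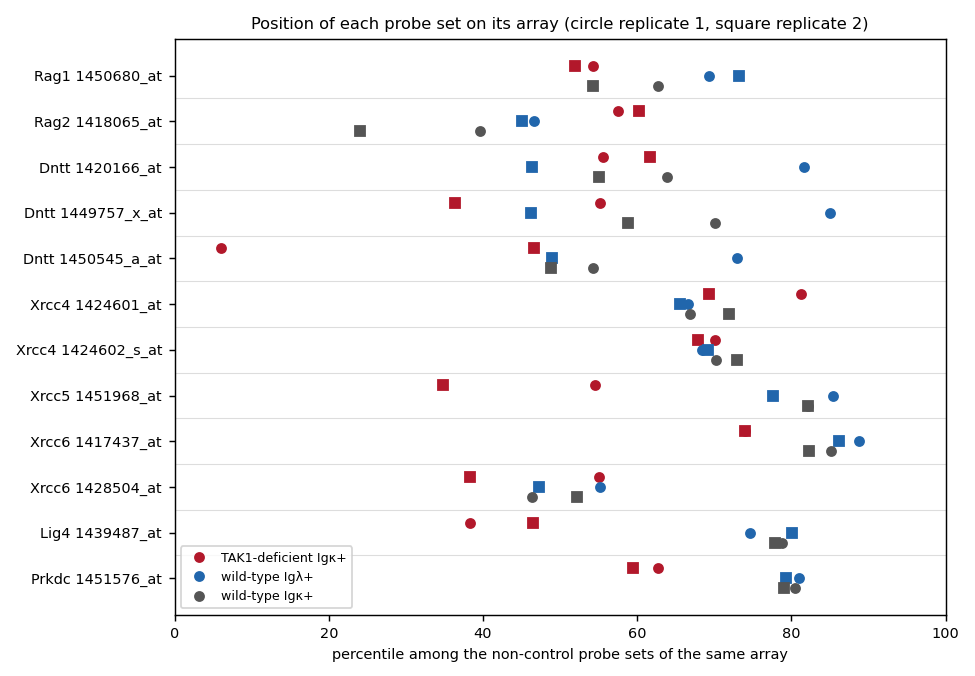
Percentile of each probe set among the 45037 non-control probe sets of its own array (x axis) for the 12 probe sets (y axis), with 3 groups in colour, circles for replicate 1 and squares for replicate 2. The red TAK1-deficient points of Xrcc5, Lig4, Prkdc and the leading Xrcc6 probe set lie left of all wild-type points, those of Rag2 lie right of them, and those of Rag1 lie beside or left of the lowest wild-type point, at 54.3.

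Xrcc5, Lig4, Prkdc and the leading probe set of Xrcc6 were lower in TAK1-deficient cells past the threshold as deposited, though not with the level adjustment, which turned the sign of the last 2. Xrcc5 had 367 and 209.5 on TAK1-deficient arrays, against 1014 and 984 on wild-type Igκ+ arrays (log2 difference -1.79 ± 0.40 SE, adjusted p = 0.00450). Lig4 had 234 and 293 on TAK1-deficient arrays, against 773 and 677 on wild-type Igκ+ arrays (-1.41 ± 0.32 SE, adjusted p = 0.00516). Prkdc had 461 and 418.5 on TAK1-deficient arrays, against 889.7 and 751 on wild-type Igκ+ arrays (-0.87 ± 0.25 SE, adjusted p = 0.0143). The groups did not overlap for any of these. The leading Xrcc6 probe set had 651 and 649 on TAK1-deficient arrays, against 1328 and 993 on wild-type Igκ+ arrays (-0.81 ± 0.25 SE, adjusted p = 0.0202). Matching quantiles, medians or spiked controls kept all 4 lower and past the threshold, with differences from -0.95 to -4.97. Matched medians moved every difference down by the same amount, so these 4 could not change sign there. With spiked controls matched the median difference over all probe sets fell too, from 1.53 to -0.86. Of all probe sets 33.9%, 47.5% and 47.4% were lower past the threshold with quantiles, medians and spiked controls matched. With the level adjustment 0 of the 4 passed: the differences were -0.70 for Xrcc5 and -0.63 for Lig4, and they turned to 0.084 for Prkdc and 0.50 for Xrcc6.

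Single arrays decided some of these calls. Without TAK1-deficient replicate 2 or wild-type Igκ+ replicate 1, the count of lower members dropped to 2, because Prkdc (adjusted p = 0.0574 and 0.0833) and the leading Xrcc6 probe set (0.0593 and 0.123) no longer passed; without TAK1-deficient replicate 1 Xrcc6 was lost alone (0.0596). The second Xrcc6 probe set, 1428504_at, disagreed with the first. It had 372 and 232 on TAK1-deficient arrays, against 39.0 and 55.9 on wild-type Igκ+ arrays (2.30 ± 0.38 SE, adjusted p = 0.000932), and its difference was -0.097, -0.079 and -0.68 with quantiles, medians and spiked controls matched. At Xrcc4, 1424601_at had 841 and 559 on TAK1-deficient arrays, against 264 and 397 on wild-type Igκ+ arrays (1.05 ± 0.34 SE, adjusted p = 0.0235). The other Xrcc4 probe set, 1424602_s_at, had 575 and 536.5 on TAK1-deficient arrays, against 359 and 435 on wild-type Igκ+ arrays, and did not pass (0.47 ± 0.28 SE, adjusted p = 0.150). Both Xrcc4 probe sets were lower and past the threshold with medians matched (-1.33 and -1.91) and spiked controls matched (-2.26 and -2.81), so no direction is given for Xrcc4. Without TAK1-deficient replicate 1 (adjusted p = 0.149) or wild-type Igκ+ replicate 1 (0.137) 1424601_at lost its call, and without TAK1-deficient replicate 1 the count of higher members was 2.

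**Figure D5:**
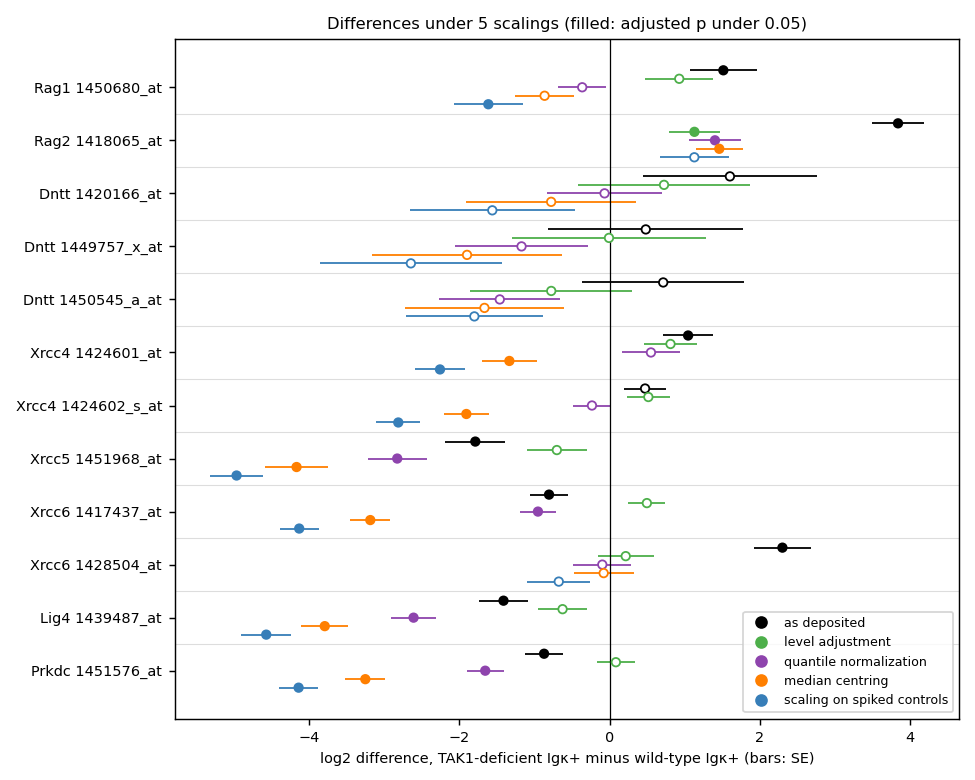
Log2 difference between TAK1-deficient and wild-type Igκ+ cells (x axis, bars show the SE) for the 12 probe sets (y axis) under 5 scalings in colour; filled points have an adjusted p under 0.05. Rag2 lies right of 0 under all 5, Xrcc5 and Lig4 lie left of 0 under all 5, and the other probe sets cross 0.

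Other genes of the pathway were read at their leading probe set, the one with the highest mean over the 6 arrays. Among all genes, 31.9% were lower and 48.2% higher. Among the 11694 genes left when dim ones were filtered out, with 1 probe set per gene, 49.8% were lower and 26.1% higher. The counts as deposited given for all pathway lists are to be read against both backgrounds. Of 12 measured DNA break response genes 9 were lower and 0 higher in TAK1-deficient cells. Their median log2 difference was -1.35, against 0.84 over all genes and -0.70 over the 11694 filtered genes. H2ax, the histone variant phosphorylated at breaks, had 62.6 and 130 on TAK1-deficient arrays, against 1173 and 566 on wild-type Igκ+ arrays (-2.96 ± 0.52 SE, adjusted p = 0.00137), and 1 of its TAK1-deficient arrays was at the level of unspiked controls. Rif1, which protects ends from resection, had a difference of -1.75 ± 0.22 and Mad2l2, a shieldin subunit, one of -2.46 ± 0.54 (SE), with 1 TAK1-deficient array, at 15.5, under the level of unspiked controls. With the level adjustment 2 of the 12 were lower and 2 higher, and of all genes 19.3% were lower and 22% higher. The counts under this adjustment given for the other lists are to be read against these shares. The 2 lower ones were H2ax and Mad2l2, and Rif1 no longer passed (-0.34, adjusted p = 0.223). Of 9 measured accessory end-joining factors 3 were lower and 1 higher. Tdp2, which frees blocked ends, had -1.94 ± 0.20 and Wrn, a helicase, -1.34 ± 0.34 (SE). Aplf, a scaffold that binds Ku, had 2.16 ± 0.32 (SE). The Aplf difference was 1.92 with quantiles matched and 1.65 with the level adjustment, both past the threshold. It turned to -0.23 with medians matched and -1.16 with spiked controls matched. With the level adjustment 0 of the 9 were lower and 1 higher. Of 7 measured genes of alternative end joining and single-strand break repair 5 were lower and 1 higher. The higher one, Polq, the polymerase of alternative end joining, had 516 and 649 on TAK1-deficient arrays, against 42.5 and 27.3 on wild-type Igκ+ arrays, and its difference of 3.56 ± 0.31 was 1.02 with the level adjustment (adjusted p = 0.0359) and 0.53 with spiked controls matched (0.279). Lig1, a replicative ligase gene, and Xrcc1, a scaffold of single-strand break repair, had -1.51 ± 0.43 and -1.40 ± 0.29 (SE), and with the level adjustment 0 of the 7 were lower and 3 higher.

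Of 19 measured regulators of the Rag genes 12 were lower and 3 higher in TAK1-deficient cells. Tcf3, the gene of the E2A proteins that bind E-boxes, had 259 and 169 on TAK1-deficient arrays, against 1626.5 and 1831 on wild-type Igκ+ arrays (-2.95 ± 0.28 SE, adjusted p = 5.93e-05). Rela, an NF-κB subunit gene, had 246.5 and 138 on TAK1-deficient arrays, against 1669 and 1626 on wild-type Igκ+ arrays (-3.05 ± 0.34 SE, adjusted p = 0.000130). Ets1, an ETS family factor gene, had a difference of -2.03 ± 0.18. Tcf3, Rela and Ets1 stayed lower and past the threshold under all 4 other scalings, at -1.59, -1.65 and -0.96 with the level adjustment, under which 4 of the 19 regulators were lower and 5 higher. Of 8 HMGB paralogues and RAG turnover genes 3 were lower and 1 higher. Cdk2, a kinase that marks RAG2 for decay, had -3.32 ± 0.31 and Skp1, a part of the ubiquitin ligase that acts on RAG2, -1.85 ± 0.19 (SE). Hmgb3 had 2.26 ± 0.45 (SE). The Hmgb3 difference was 2.63 with quantiles matched and 2.67 with the level adjustment, both past the threshold. It was -0.12 with medians matched and -1.13 with spiked controls matched. With the level adjustment 1 of the 8 was lower and 2 higher. The lower one was Cdk2, at -2.16 (adjusted p = 0.00157), and Skp1 no longer passed (-0.39, adjusted p = 0.125).

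Between the wild-type groups 0 of these pathway genes passed, and 0% of all genes did. The medians of the 5 lists lay between -0.24 and 0.09. Hmgb2, a bending protein that helps RAG bind its sites, had 3310 and 2244 on the Igλ+ arrays, against 4504 and 3708 on the Igκ+ arrays (-0.58 ± 0.21 SE, unadjusted p = 0.0291 in limma), without overlap. Tcf3 had -0.38 ± 0.28 and Runx1 -0.82 ± 0.42 (SE). Ccna2, a cyclin gene of dividing cells, had 483 and 51.7 on the Igλ+ arrays, against 928 and 209 on the Igκ+ arrays, and the groups overlapped. Wrn and H2ax had -0.71 ± 0.34 and -0.65 ± 0.52 (SE). Paxx and Trp53bp1 were higher on both Igλ+ arrays, with 0.17 ± 0.24 and 0.33 ± 0.21 (SE). Parp2 and Lig1 had 0.13 ± 0.23 and -0.23 ± 0.43 (SE), with overlap.

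Genes with a mean level above the 40th percentile of probe sets were compared with a member over the 6 arrays, 11693 for each. This filter can keep dim genes through the arrays where they are bright. The most alike genes had the smallest root-mean-square difference of centred log2 signals. For Rag1 these were Gm11517 (0.325), Plxdc1 (0.339) and Mrvi1 (0.372), and Gm11517 had 592 and 864 on the Igλ+ arrays, against 518 and 213 on wild-type Igκ+ arrays. For Rag2 they were Mboat2 (0.123), Ppp1r9a (0.131) and Fam13a (0.135), all bright on the TAK1-deficient arrays, with 404 to 740 there and 7.08 to 90.6 on the wild-type arrays. For the leading Dntt probe set they were Car1 (0.402), an erythroid carbonic anhydrase gene, D13Ertd608e (0.411) and Ccl6 (0.422), a chemokine gene of myeloid cells. Ccl6 had 2612 and 55.3 on the Igλ+ arrays, against 425 and 141 on wild-type Igκ+ arrays.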

How the data were processed

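RNA was hybridised to 6 Affymetrix arrays, 2 for each of 3 groups. The values the authors deposited are intensities, that is, probe set signals on a linear scale. MAS5 is the tool that the submitters' processing notes name; no version is given in the sources used here. Each array has a mean of 500 with the lowest and highest 2% left out, so an array carries 1 scaling factor. The precision is limited by the number of arrays. The array whose title ends in "-rep" is replicate 2.

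Probe sets were named from the platform annotation: 34945 carried 1 gene symbol. Signals were converted to log2(signal + 16), which understates changes of dim genes. All 45037 non-control probe sets entered limma (version 3.58.1, R 4.3.3): a mean per group over all 6 arrays, eBayes with a trend, two-sided, Benjamini-Hochberg adjustment over all probe sets and a threshold of 0.05. No filter was used in these tests, since a filter on the mean keeps dim probe sets through the group where they are bright. All 12 members also passed a filter at the 40th percentile. The search for the most alike genes did use that filter. Genes outside the members were named by a fixed rule: per list and comparison, the 3 largest differences past the threshold or, with none, the 2 smallest p; and for the leading probe sets of Rag1, Rag2 and Dntt the 3 most alike genes. Mpo, Elane, Cd34 and other marker values were picked after they were seen. A probe set counts as at the level of unspiked controls when it is no higher than their 95th percentile on its array.

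Alternatives were pseudocounts of 1 and 64, other filters, other scalings (matched quantiles, matched medians, matched spiked controls and the level adjustment) and variance models, 1 probe set per gene, a replicate block and leaving out each array. The members, lists, tests and alternatives, the level adjustment (lowess, span 0.2) among them, were chosen with earlier results of these data known. On simulated data with 45037 probe sets, 26% and 98% of those changed by 1 and 2 log2 units were recovered in the TAK1 comparison, and 28% and 92% in that of Igλ+ against Igκ+ cells. Only 50 probe sets were changed at each size, and no shift of whole arrays was simulated. The noise was drawn independently for each probe set, with an SD smoothed over signal level. Replicates that differ in many genes at once, as the Igλ+ arrays do, were thus not simulated. In the real TAK1 comparison 35414 probe sets passed. In the real light chain comparison the smallest adjusted p was 0.99999 (limma, Benjamini-Hochberg). These shares therefore do not carry over to either comparison. Plots used Python 3.11.15 and matplotlib 3.10.9.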

Additional observations from a re-analysis of the deposited data

How the results depend on the processing

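In the TAK1 comparison the members' calls depended on the scaling. As deposited 4 were lower and 4 higher, against 21.8% and 56.8% of all probe sets. The numbers higher were 1 with quantiles matched, 1 with medians matched, 0 with spiked controls matched and 1 with the level adjustment. Of all probe sets 26.1%, 23.7%, 20% and 23.6% were higher there, in the same order. The numbers higher were 2 with the 60th percentile filter (9 members tested) and with 1 probe set per gene (8 tested). Of all probe sets tested there, 18.8% and 26.1% were higher. The numbers lower were 7 with spiked controls matched and 0 with the level adjustment, against 47.4% and 19.9% of all probe sets. Over all probe sets 35414 passed as deposited, 19882 and 12604 with the 40th and 60th percentile filters, 8876 with 1 probe set per gene (fewer were tested in these 3) and 19584 with the level adjustment. The share of higher ones among those called was 72.3% as deposited, 43.5% with quantiles matched, 33.3% with medians matched, 29.7% with spiked controls matched and 54.2% with the level adjustment, and the median log2 difference in the same order was 1.53, -0.20, -0.85, -0.86 and -0.0051.

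Differences that changed sign in this comparison were, with quantiles, medians and spiked controls matched in this order, Rag1 -0.36, -0.87 and -1.62, Dntt 1420166_at -0.067, -0.78 and -1.56, Dntt 1449757_x_at -1.17, -1.90 and -2.65, Dntt 1450545_a_at -1.46, -1.67 and -1.80, Xrcc4 1424602_s_at -0.23, -1.91 and -2.81 and Xrcc6 1428504_at -0.097, -0.079 and -0.68; Xrcc4 1424601_at was -1.33 and -2.26 with the last of these 2 scalings. With the level adjustment Dntt 1449757_x_at was -0.0079, Dntt 1450545_a_at -0.78, Xrcc6 1417437_at 0.50 and Prkdc 0.084. In the Igλ+ against Igκ+ comparison Prkdc was -0.098 with medians matched and -0.13 with spiked controls matched. Matching medians moved every difference of a comparison by the same amount, downward in both comparisons. The cause of the other changes was not tested.

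Leaving out each array in turn gave 2 to 5 higher and 2 to 4 lower members and 31097 to 35993 probe sets for the TAK1 comparison, and 0 to 0 members and 0 to 25 probe sets for the light chain comparison; the 25 came without Igλ+ replicate 2. Differences whose sign changed ranged over -0.29 to 1.25 (Dntt 1449757_x_at) and -0.65 to 2.08 (1450545_a_at) for TAK1 deficiency. For the light chains they ranged over -1.87 to 2.59 (Dntt 1449757_x_at), -1.23 to 2.79 (1420166_at), -0.070 to 2.64 (1450545_a_at), -0.47 to 0.21 (Lig4), -0.068 to 0.17 (Prkdc), -0.53 to 0.40 (Xrcc5) and -0.0024 to 0.64 (Xrcc6 1428504_at). Where 1 array of a group was left, its spread was taken from the other groups. With the replicate number as a block the counts were 4 lower, 4 higher and 0 members and 35603 and 0 probe sets; the correlation of same-numbered deviations was 0.002 between TAK1-deficient and wild-type Igκ+ arrays, 0.194 between Igλ+ and wild-type Igκ+ arrays and 0.000 between TAK1-deficient and Igλ+ arrays. The labels do not say that a shared number marks a pairing.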
